A study of Mus musculus with 30 samples.

Results

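This account concerns 10 genes that the endoplasmic reticulum (ER) of mammalian cells uses to fold secreted and membrane proteins, and that the ATF6 and XBP1 arms of the unfolded protein response are known to induce. They are the HSP70 chaperone Hspa5 (BiP), the HSP90 chaperone Hsp90b1 (GRP94), the protein disulfide isomerases Pdia3, Pdia4 and Pdia6, the lectin chaperones Calr (calreticulin) and Canx (calnexin), the transcription factor Xbp1, and the ER stress-inducible cofactors Sdf2l1 and Creld2. The genes are a set given by name, with no threshold on a measured value, although earlier results of these data were known when the set was made. Each had 1 row in the expression tables, which hold 56951 gene symbols. All 10 passed the filter on low values (more than 20 reads and more than 0.5 FPKM on average across the mice) and were among the 12030 genes tested. FPKM is the number of fragments per kilobase of exon, scaled to the size of the library.

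The transcripts were measured by poly(A) RNA-seq in the gastrocnemius muscle, collected with the plantaris, of male wild-type C57BL/6J mice, each housed alone with a running wheel. The LD group (14 mice, 2 of the 16 assigned having been lost) stayed on a fixed 12-h light and 12-h dark cycle, and the ADV group (16 mice) had its cycle advanced by 8 h every 4 days. Both schedules lasted 64 weeks and began at 14 weeks of age, and all mice had passed through the same light-dark entrainment and constant darkness before. The tissue was collected over a span of hours in the light phase, when the ADV light cycle coincided with that of the LD group. From each mouse 1 library was made.

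When unfolded proteins accumulate in the ER, BiP leaves the sensors ATF6, IRE1 and PERK. Cleaved ATF6 and the spliced form of XBP1, which IRE1 makes, then raise the transcription of ER chaperones, whereas PERK slows translation and favours ATF4, which drives amino acid genes and CHOP (Ddit3). In skeletal muscle much of the ER is specialised as sarcoplasmic reticulum, which stores calcium for contraction, and calreticulin and BiP are also calcium-binding proteins of its lumen.

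The best known DNA element of the ATF6 arm is the ER stress response element (ERSE), in which a CCAAT box is followed, after 9 bases of any kind, by CCACG. It was searched on both strands of the RefSeq promoter windows (GRCm38.p6, from 250 bases before to 50 bases after each gene start), which held all 10 genes. These sites are shown because the element is the known point of control that the 10 genes could share. Capitals mark the CCAAT box and the CCACG part, each site is written 5′ to 3′ on the strand that carries the element, and 5 flanking bases are given on each side.
Hspa5 (chr2:34772020-34772048, plus strand): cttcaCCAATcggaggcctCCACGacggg
Hsp90b1, upstream site (chr10:86705633-86705661, minus strand): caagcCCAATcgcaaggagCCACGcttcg
Hsp90b1, downstream site (chr10:86705528-86705556, plus strand): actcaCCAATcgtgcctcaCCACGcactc
Pdia6 (chr12:17266486-17266514, plus strand): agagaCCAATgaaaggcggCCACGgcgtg
Calr (chr8:84847070-84847098, plus strand): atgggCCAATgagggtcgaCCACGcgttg
Canx (chr11:50325795-50325823, minus strand): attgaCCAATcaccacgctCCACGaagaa
Creld2 (chr15:88819515-88819543, minus strand): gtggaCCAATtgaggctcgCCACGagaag

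The full element was thus present in 6 of 10 promoters, with 7 sites in all, against 39 of 32851 promoters of the same length (0.119%). Of these sites 4 read in the direction of transcription (Hspa5, Canx, Pdia6 and the upstream site of Hsp90b1) and 3 against it. Their first base lay between -212 and -65 relative to the gene start. Pdia3 and Pdia4 carried the element without its last base, CCAC in place of CCACG, which brings the count to 8 of 10 promoters against 120 of 32851 (0.365%).
Pdia3 (chr2:121413868-121413895, plus strand): cgcagCCAATcggcggctgCCACactgc
Pdia4 (chr6:47813597-47813624, plus strand): gaccaCCAATcacgggctgCCACtcggt

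No match of either form was found for Xbp1 and Sdf2l1, which says only that these letters are not in this window. The second ERSE (ATTGG, 1 base of any kind, CCACG), the core of the unfolded protein response element (TGACGTGG) and the site bound by ATF4 with C/EBP partners (TGATGNAA) were found in 0 of the 10 promoters, against 0.0365%, 0.676% and 3.97% of all promoters. Promoter windows were found for 25 of the 34 genes of the PERK-ATF4-CHOP arm, 29 windows in all. Of these, 0 held an ERSE and 8 held TGATGNAA, those of Asns, Atf3, Chac1, Fgf21, Nupr1, Slc7a11, Trib3 and Vldlr. A match describes the letters of the sequence and does not show binding. The 10 genes were named as known targets of the ATF6 and XBP1 arms, so their share of ERSE matches is a description and not a test. They are also counted among all promoters.

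**Figure D1:**
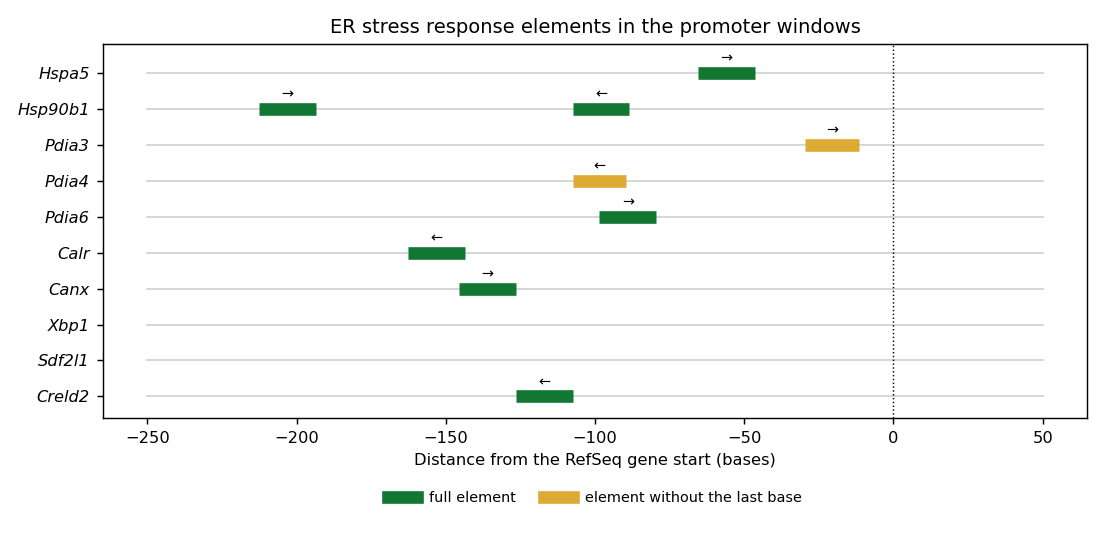
Position of the ER stress response element in the promoter windows of the 10 genes. The horizontal axis is the distance from the RefSeq gene start in bases, each grey line is the window of 1 gene, green bars are full elements, yellow bars are elements without the last base, and arrows give the direction of the element relative to the gene. Hsp90b1 has 2 full elements, and Xbp1 and Sdf2l1 have none.

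Between 18875468.5 and 28512674 reads per mouse fell on exons, and the share of the library total on exons was 91.17 ± 0.12% (SD, n = 14) in LD mice and 91.53 ± 0.37% (n = 16) in ADV mice. The tissue carried its own markers, with summed levels of 10 muscle fiber genes between 72387 and 101594 FPKM in every mouse and Tnnt3 (fast troponin T) at 19616 FPKM on average. Clock genes differed between the groups at the time of collection, as the log2 fold change of ADV over LD was 0.64 for Bmal1 (FDR = 0.00824) and -1.65 for Dbp (FDR = 0.000470), by edgeR's quasi-likelihood test with Benjamini-Hochberg adjustment over 12030 genes. The hour at which each mouse was sampled was not used here, and its part in the results below was not tested.

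The 10 genes covered a wide range of levels. On the FPKM scale, averaged over the 30 mice, Calr was the most abundant at 61.0, followed by Hspa5 at 54.5, Hsp90b1 at 45.6 and Xbp1 at 34.3. The 3 genes Pdia6, Canx and Pdia3 lay together at 18.7, 18.5 and 17.5 FPKM, and Pdia4, Creld2 and Sdf2l1 were the scarcest at 5.54, 4.44 and 2.93 FPKM. Most neighbours in this order were separated within the mice: Hspa5 exceeded Hsp90b1 and Xbp1 exceeded Pdia6 in 30 of 30 mice, and Calr exceeded Hspa5 in 26 of 30. The exception was the middle group, in which Pdia6 exceeded Canx in 12 of 30 mice and Canx exceeded Pdia3 in 21 of 30. The coefficient of variation among LD mice was 6.26% for Canx and 7.14% for Calr but 20.4% for Creld2 and 27.8% for Sdf2l1, which had a mean of 79.1 reads.

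The comparison of LD with ADV asks whether a long period of repeated phase advances was accompanied by a higher level of ER chaperone transcripts. It was not detectably so for any of the 10 genes. With edgeR, 690 of the 12030 genes tested (5.74%) were called higher and 616 (5.12%) lower in ADV mice at an FDR under 0.05, and 0 of the 10 ER chaperone genes were called in either direction (10.9% of all genes were). Differentially expressed genes, with a fold change over 1.3 as well, numbered 251 (2.09%), again with 0 of the 10 among them. DESeq2 and limma also called 0 of 10. At an unadjusted p under 0.05 there was 1 of 10, Canx, against 3615 of all 12030 genes. The split of all calls depended on the scaling, with 860 higher and 448 lower by limma on log2(FPKM + 0.1). The count of chaperone genes stayed at 0 in each of 42 alternative settings, among them 30 that left out 1 library. In 1 of these settings, with a score for the state of the clock genes as covariate, 0 of all 12030 genes were called. The count of 0 chaperone genes carries no information there. Other settings also called fewer of all genes, with 289 higher and 202 lower with a replicate block and 290 and 307 with the GC trend removed. Without the filter 353 were called higher and 274 lower of 33970 genes. DESeq2 called more, 872 higher and 801 lower. With 10.9% of all genes called in the main fit, 0 of 10 is not far from the overall share. In whole muscle, fewer cells of a type and less RNA per cell cannot be told apart.

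The estimates were also close to 0. On the log2 scale the differences of the 10 genes (ADV minus LD) ran from -0.11 to 0.11 with a median of 0.0075, and 5 of 10 were positive. That count moved with the settings, from 2 of 10 with a score for the state of the clock genes in the model (median -0.04) to 8 of 10 by limma on log2(FPKM + 0.1) and 9 of 10 without LD 23 or without ADV 31. Their median absolute difference was 0.0226, whereas that of all genes tested was 0.0950. The genes were split around that value, with Hspa5 (0.115), Canx (-0.106), Sdf2l1 (0.104) and Creld2 (0.0982) farther from 0 and the others nearer. The median SE was also smaller for the 10 genes, at 0.0567 against 0.0704. The 95% intervals of the fold change lay between 0.877 (lower bound of Canx) and 1.26 (upper bound of Sdf2l1), so that for each of the 10 genes a change by more than 1.3-fold, the limit used for differentially expressed genes in this study, lay outside its interval in this fit. With the clock gene score in the model the errors were larger, and the intervals of Sdf2l1 (0.703 to 1.09), Creld2 (0.760 to 1.14) and Pdia4 (0.760 to 1.09) reached past a 1.3-fold decrease. Without LD 23, the upper bound of Sdf2l1 was 1.31.

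**Figure D2:**
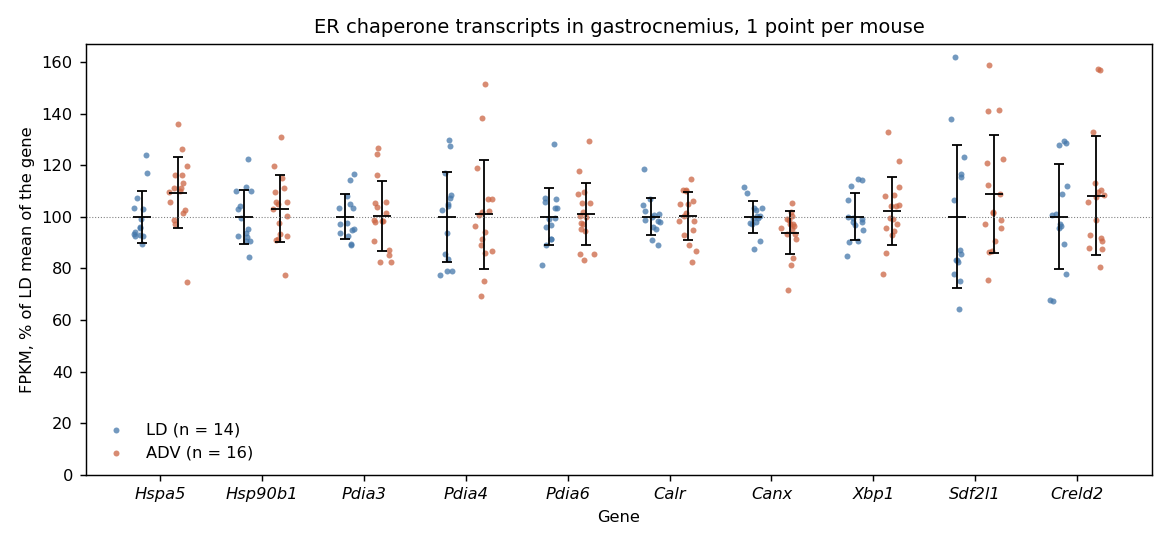
Level of the 10 ER chaperone transcripts in each mouse. The vertical axis is FPKM as a percentage of the LD mean of the gene, each point is 1 mouse (blue LD, n = 14, and orange ADV, n = 16), and the black bars give the mean and SD of the group. The groups overlap for every gene, and Sdf2l1, Creld2 and Pdia4 spread the most.

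Hspa5 (chr2:34661982-34667559 on GRCm39, plus strand, 9 exons) encodes BiP, which holds unfolded chains and keeps the stress sensors inactive. In LD mice it ranged from 46.4 to 64.3 FPKM with a median of 49.8, and in ADV mice from 38.9 to 70.6 FPKM with a median of 57.4. The groups overlapped, although 15 of 16 ADV mice lay above the LD median, and both the lowest mouse (ADV 22) and the highest (ADV 33) of the 30 belonged to ADV. The means were 51.9 ± 5.23 (SD, n = 14) and 56.8 ± 7.09 FPKM (n = 16), and the fitted fold change was 1.08 (95% interval 0.996 to 1.18, FDR = 0.190). The call was thus not reached, and ADV 22 weighed on it most: without that mouse the log2 fold change went from 0.11 to 0.14 (FDR = 0.0603). In the other direction, it was 0.093 (FDR = 0.286) without ADV 33 and 0.096 (FDR = 0.267) without ADV 36. Removal of each library's trend with transcript GC content raised it to 0.18 (FDR = 0.0982).

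Hsp90b1 (chr10:86526704-86541373, minus strand, 18 exons) encodes GRP94, which completes the folding of a restricted set of clients such as integrins and Toll-like receptors. It ranged from 37.9 to 54.9 FPKM in LD mice (median 43.7) and from 34.8 to 58.8 FPKM in ADV mice (median 46.7). The lowest and highest mice were again ADV 22 and ADV 33, and the LD range lay within the ADV range. Its log2 fold change was 0.03 ± 0.06 (SE, FDR = 0.767).

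The protein disulfide isomerases form and rearrange disulfide bonds, Pdia3 (ERp57) mainly on glycoproteins held by calreticulin and calnexin. Pdia3 (chr2:121244256-121269168) ranged from 15.6 to 20.3 FPKM in LD mice (median 16.95) and from 14.4 to 22.1 in ADV mice (median 17.2). Pdia6 (chr12:17316546-17334771), an isomerase that also works with BiP, ranged from 15.1 to 23.8 FPKM in LD mice (median 18.5) and from 15.4 to 24.04 in ADV mice (median 18.6). Pdia4 (chr6:47773075-47790364, ERp72) ranged from 4.27 to 7.14 FPKM in LD mice (median 5.69) and from 3.82 to 8.34 in ADV mice (median 5.43). The groups overlapped over most of their range for all 3 genes, and the SD was larger in ADV mice, at 2.35 against 1.52 FPKM for Pdia3, 2.23 against 2.05 for Pdia6 and 1.17 against 0.966 for Pdia4. Their log2 fold changes were -0.01 ± 0.05 for Pdia3 (SE, FDR = 0.901), -0.00087 ± 0.05 for Pdia6 (FDR = 0.993) and -0.0027 ± 0.09 for Pdia4 (FDR = 0.989), and the sign of each turned under some other settings, as given in the closing section.

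Calr and Canx bind the monoglucosylated sugar of new glycoproteins, the first in the ER lumen and the second as a membrane protein. Calr (chr8:85568479-85573563) ranged from 54.1 to 72.0 FPKM in LD mice (median 60.4) and from 50.2 to 69.6 in ADV mice (median 61.4). The group means differed by less than either SD, with 60.9 ± 4.34 and 61.1 ± 5.67 FPKM and a log2 fold change of -0.01 ± 0.04 (SE, FDR = 0.886).

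Canx (chr11:50184788-50216500) was the gene with the smallest p of the 10. It ranged from 16.7 to 21.3 FPKM in LD mice (median 19.1) and from 13.7 to 20.1 in ADV mice (median 18.4). Of the ADV mice 3 of 16 lay above the LD median, and the groups still overlapped over most of their range. The means were 19.1 ± 1.20 (SD, n = 14) and 17.9 ± 1.62 FPKM (n = 16), and the log2 fold change was -0.11 ± 0.04 (SE, unadjusted p = 0.0146, FDR = 0.0837). The mouse with the lowest Canx level, ADV 34 at 13.7 FPKM, also had the highest exon share of the 30 libraries (92.7%), and without it the log2 fold change was -0.08 (FDR = 0.107). Over all fits without 1 library it ranged from -0.12 to -0.08, and the lowest FDR was 0.0633. Canx transcripts have the lowest GC content of the 10 (42.3%, against up to 56.7% for Sdf2l1), and with the GC trend of each library removed the log2 fold change was -0.01 (FDR = 0.891).

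Xbp1 (chr11:5470995-5475242) is both a sensor product and a target of the pathway. Its level ranged from 28.8 to 38.9 FPKM in LD mice (median 33.4) and from 26.3 to 45.1 in ADV mice (median 34.5), where ADV 27 was the highest. The log2 fold change was 0.02 ± 0.06 (SE, FDR = 0.872). Exon counts do not separate the spliced, active form of the transcript from the unspliced form, so that this level says nothing of the splicing by IRE1.

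Sdf2l1 and Creld2 code for ER luminal proteins, the first a partner of DnaJ-type cochaperones of BiP and the second a secreted protein with disulfide isomerase activity, and both are sensitive reporters of ER stress in cultured cells. Sdf2l1 (chr16:16948002-16950247) ranged from 1.79 to 4.535 FPKM in LD mice (median 2.415) and from 2.11 to 4.44 in ADV mice (median 2.85). As many as 15 of 16 ADV mice lay above the LD median, yet the highest of all 30 was LD 23. Creld2 (chr15:88703849-88710886) ranged from 2.87 to 5.51 FPKM in LD mice (median 4.22) and from 3.43 to 6.69 in ADV mice (median 4.54). Both estimates were positive but within their error, with a log2 fold change of 0.10 ± 0.11 for Sdf2l1 (SE, FDR = 0.570) and 0.10 ± 0.10 for Creld2 (FDR = 0.545).

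Overlapping genes limit some of these counts, because the strand option used for counting is not given in the sources used here. Hspa5 shares 24.05% of its exon bases with Rabepk on the opposite strand, Hsp90b1 shares 20.2% with the lncRNA Gm66230, and Pdia3 shares 15.6% with Catsper2. For Pdia6, Canx and Pdia4 the shared part was 2.80% or less, and Calr, Xbp1, Sdf2l1 and Creld2 shared none. Reads of Hspa5, Hsp90b1 and Pdia3 in the shared parts therefore cannot be assigned with certainty.

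**Figure D3:**
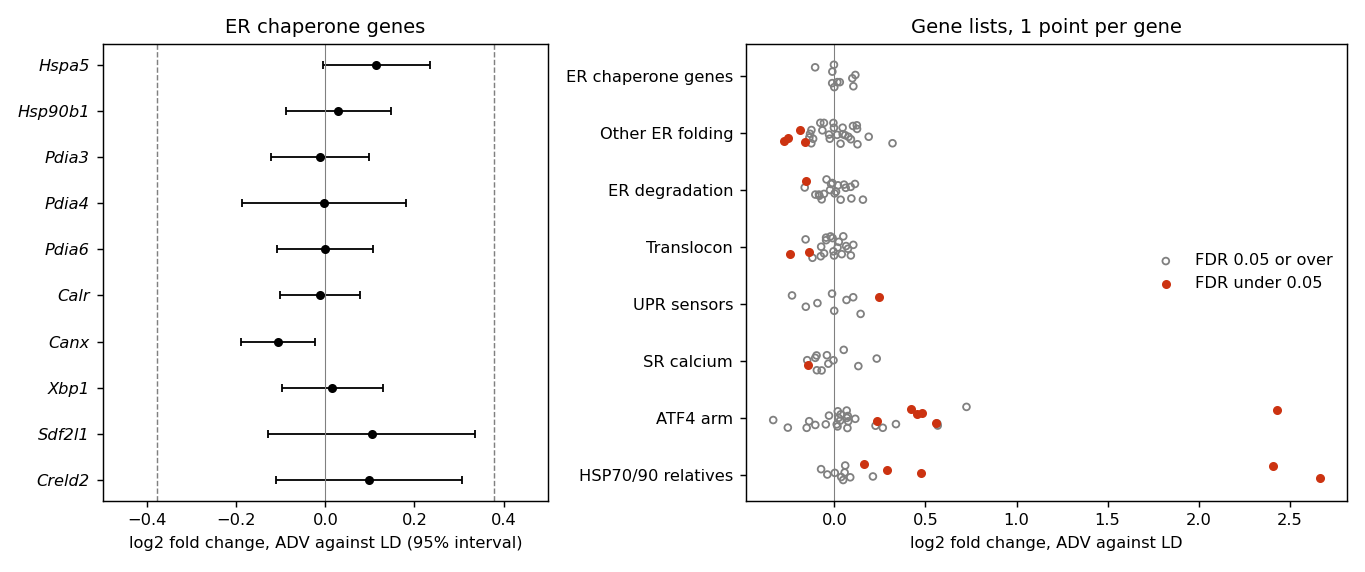
Log2 fold change of ADV over LD. On the left, each point is 1 of the 10 genes with its 95% interval, and dashed lines mark a 1.3-fold change. On the right, each point is 1 gene of a list (red, FDR under 0.05, and grey, 0.05 or over). All 10 intervals lie between the dashed lines, and the red points at high fold changes are in the ATF4 arm and among the cytosolic HSP70 and HSP90 relatives.

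Other genes of ER protein folding were examined as lists, beside 5.74% of all genes called higher and 5.12% lower by edgeR. The share called higher was 11.1% for the sensors. Called lower were 13.8% of the folding enzymes, 4.76% of the degradation, 9.52% of the translocon and 8.33% of the calcium genes. Each of these shares rested on 4 genes or fewer. Of 9 sensors and their processing proteases, 1 was called higher and 0 lower: Atf6b, a relative of ATF6, went from 3.31 ± 0.401 to 3.97 ± 0.490 FPKM (SD, log2 fold change 0.24, FDR = 0.00816), or 0.12 (FDR = 0.134) with the GC trend removed. Creb3, the most abundant sensor-type factor, and Mbtps2, the site-2 protease that releases ATF6, had log2 fold changes of 0.10 (FDR = 0.121) and -0.23 (FDR = 0.128). The median log2 fold change of the list was -0.0012, against 0.0035 for all genes tested.

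Among 29 other folding enzymes and co-chaperones of the ER (30 listed), 0 were called higher and 4 lower by edgeR, and 2 higher (Sdf2 and Erp29, named after their values were seen) and 4 lower by limma. Lower by edgeR were Dnajc10, a disulfide reductase (log2 fold change -0.16, FDR = 0.0191), Hspa13, an HSP70 relative (-0.26, FDR = 0.0211), Tmx1, a membrane oxidoreductase (-0.19, FDR = 0.0215), and Ero1b, an oxidase of the isomerases (-0.28, FDR = 0.0467). P4hb, the most abundant isomerase with 67.5 ± 3.73 FPKM in LD and 68.1 ± 3.82 in ADV mice (SD), had a log2 fold change of -0.0027 (FDR = 0.971). Of 21 genes of ER-associated degradation, edgeR called 1 lower, Sel1l, the partner of the ubiquitin ligase Hrd1 (-0.16, FDR = 0.0353, or 0.0630 by limma). The listed genes Vcp, Derl1 and Ube2g2 had log2 fold changes of -0.02 (FDR = 0.762), -0.10 (FDR = 0.0532) and 0.16 (FDR = 0.0678) by edgeR. DESeq2 called Derl1 lower as well (FDR = 0.0363), and limma called 0 of the list lower and Ube2g2 higher (FDR = 0.0439). Of 21 genes of the translocon and signal peptidase, 2 were called lower, the translocon-associated Ssr3 (-0.25, FDR = 0.00782) and Ssr1 (-0.14, FDR = 0.0267), while Srpr (-0.06, FDR = 0.372) and Spcs3 (-0.16, FDR = 0.0786) were not called.

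These calls lower in ADV were small, at most 0.28 on the log2 scale, and not all were stable. The call of Ero1b was lost in 18 of the 30 fits without 1 library, that of Sel1l in 6 (without LD 28, LD 29, LD 30, LD 35, LD 36 or ADV 25) and that of Ssr1 in 1 (without LD 28). With the GC trend removed, Sel1l alone of these 7 genes was called (FDR = 0.0489), and limma did not call Ero1b, Sel1l and Ssr1 (FDR from 0.0630 to 0.0809). Of 12 calcium-handling genes of the sarcoplasmic reticulum edgeR called 1 lower, the junctional protein Trdn (log2 fold change -0.14, FDR = 0.0232), which was at 0.01 (FDR = 0.926) with the GC trend removed, where Jph2 (-0.18, FDR = 0.0342) and Stim1 (-0.10, FDR = 0.0358), named after their values were seen, were called in its place. Atp2a1, the calcium pump of fast fibers and the most abundant gene of the list, had a log2 fold change of -0.07 (FDR = 0.513), and Srl and Jph1 had -0.10 (FDR = 0.0718) and -0.11 (FDR = 0.131) by edgeR, while DESeq2 also called Srl lower (FDR = 0.0349).

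In the PERK-ATF4-CHOP arm the edgeR calls were all higher in ADV mice. Of its 31 genes tested (34 listed, with Slc7a11, Fgf21 and Gdf15 under the filter), 6 were called higher (19.4%) and 0 lower, and the median log2 fold change was 0.07. With the GC trend removed 4 of them were called, without Atf4 (FDR = 0.0767) and Ppp1r15a (FDR = 0.0736), and with the clock gene score in the model 0 were, with 3 genes of the arm higher at an unadjusted p under 0.05. Calls fell over all 12030 genes as well, from 690 higher and 616 lower to 290 and 307 with the GC trend removed. With the clock gene score 0 of all genes were called, and 1395 had an unadjusted p under 0.05 in either direction. Atf4, the central factor of the arm, went from 76.8 ± 7.71 to 91.3 ± 12.8 FPKM (SD, log2 fold change 0.23, FDR = 0.0210), and Ddit3 (CHOP) from 7.13 ± 1.98 to 10.6 ± 3.25 FPKM (0.56, FDR = 0.0147). Atf3, a stress-induced factor, rose from 5.49 ± 4.60 to 29.7 ± 32.1 FPKM (2.43, FDR = 0.00341). The amino acid transporter gene Slc7a5 rose by a log2 fold change of 0.45 (FDR = 0.0114). The count is completed by Asns, asparagine synthetase (0.48, FDR = 0.0384), and Ppp1r15a, which restores translation after PERK (0.42, FDR = 0.0241). These 2 were named after their values were seen. In the fit with the clock gene score, the log2 fold changes were 2.31 for Atf3, 0.66 for Ddit3 and 0.45 for Asns. They were 0.39 for Ppp1r15a, 0.31 for Slc7a5 and 0.09 for Atf4. The score itself differed between the groups, with -0.74 ± 0.81 in LD and 0.65 ± 0.48 in ADV mice (SD). That fit therefore cannot separate it well from the schedule, and its part in the calls was not tested.

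The other 25 genes of the arm, several aminoacyl-tRNA synthetases among them, did not pass the test with edgeR (DESeq2 added Cebpb and Sars1, named after their values were seen, and limma added Sars1 and did not call Asns), and the call of Asns was lost in 11 of the 30 fits without 1 library, with the highest FDR (0.0661) without ADV 25. Without ADV 30 the count of genes called lower went from 0 to 1, Vldlr (-0.30, FDR = 0.0472). The difference between the ATF4 arm and the 10 chaperone genes was not itself tested, and the values are given side by side. Atf4 was called at 0.234 (FDR = 0.0210), while Hspa5, with a log2 fold change of 0.11, was not (FDR = 0.190). The upper bounds of the 95% intervals were 0.236 for Hspa5, 0.306 for Creld2 and 0.337 for Sdf2l1 on the log2 scale. A change as large as that of Atf4 thus lay within the intervals of Hspa5, Creld2 and Sdf2l1. The upper bounds of Hsp90b1, Pdia3, Pdia4, Pdia6, Calr, Canx and Xbp1 were lower, at 0.182 (Pdia4) or less.

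The HSP70 and HSP90 relatives outside the ER were listed together with the mitochondrial Hspd1 and Hspe1, which are of neither family. This list had the highest share of calls among the lists of protein folding, ER stress and calcium genes. Of its 14 genes 5 were called higher (35.7%) and 0 lower. That count was 4 with the GC trend removed and 0 with the clock gene score, where 0 of all 12030 genes were called. The heat-inducible Hspa1a went from 1.65 ± 0.891 to 8.80 ± 11.2 FPKM (SD, log2 fold change 2.41, FDR = 0.00163) and its near-identical copy Hspa1b from 1.29 ± 0.85 to 8.21 ± 12.1 FPKM (2.67, FDR = 0.00215), so that reads of the pair may have been split between them. Hspa8, the constitutive cytosolic HSP70, rose from 340.6 ± 39.3 to 420.7 ± 67.1 FPKM (0.29, FDR = 0.0102). The remaining calls were Hsp90aa1 (0.47, FDR = 0.0286, lost without LD 28 or ADV 25) and the mitochondrial Hspe1 (0.16, FDR = 0.0496, lost in 23 of the 30 fits), both named after their values were seen. Hsp90ab1, the most abundant of the list at 459.5 FPKM over all mice, was not called (0.06, FDR = 0.292). The ER members of the HSP70 and HSP90 families, Hspa5 and Hsp90b1, had log2 fold changes of 0.11 and 0.03 in the same mice. The difference between compartments was not tested.

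**Figure D4:**
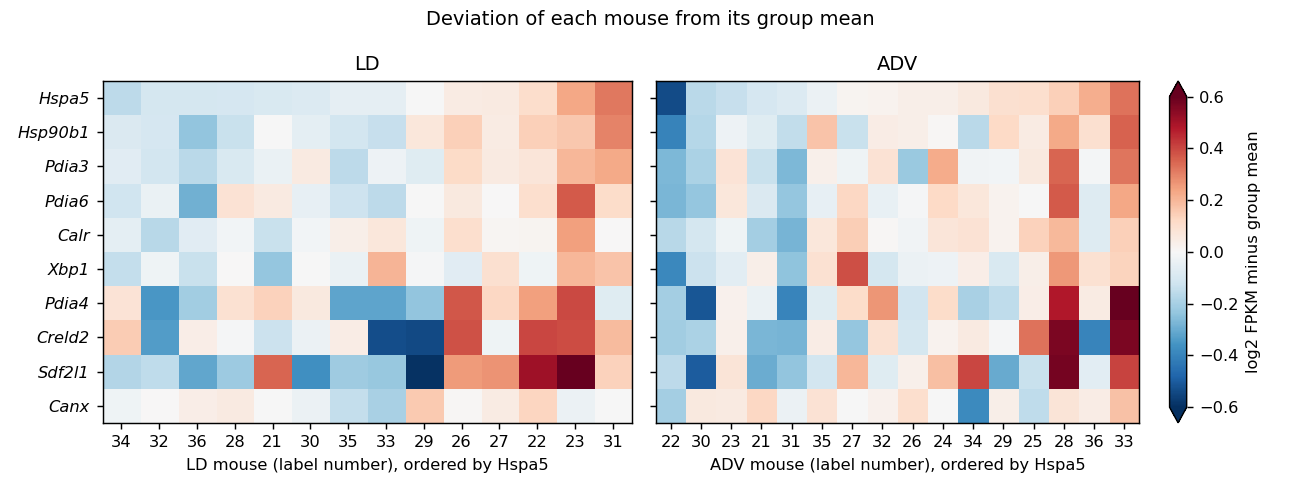
Deviation of each mouse from its group mean for the 10 genes. Columns are mice with their label numbers, ordered within each group by Hspa5, rows are genes, and colour gives the difference of log2 FPKM from the mean of the group, cut at 0.6 in either direction. Most rows turn from blue to red along the order of Hspa5, and the bottom row, Canx, does not.

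The genes varied together from mouse to mouse. ADV 33 was among the 3 highest ADV mice for all 10 genes and ADV 28 for 9, whereas ADV 22 was among the 3 lowest for 8. In the LD group, LD 23 was among the 3 highest for 9 genes and LD 36 among the 3 lowest for 7. Both groups thus held mice at either end.

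With the group means removed, log2 CPM of Hspa5 over the 30 mice was related to that of 8 of the 9 other genes at an adjusted p under 0.05 (two-sided permutation test, 9 relations, Benjamini-Hochberg). The strongest was Hsp90b1 (Pearson r = 0.84, permutation p = 1.0e-05, the smallest that these permutations can give, adjusted p = 9.0e-05, Spearman rho = 0.74 with p = 2.0e-05). Pdia3 (r = 0.69, rho = 0.65), Pdia6 (r = 0.64, rho = 0.67), Xbp1 (r = 0.64, rho = 0.63) and Calr (r = 0.59, rho = 0.70) followed, with permutation p of 0.00119 or less and adjusted p of 0.00214 or less for r. Pdia4 (r = 0.44, rho = 0.43), Creld2 (r = 0.44, rho = 0.48) and Sdf2l1 (r = 0.43, rho = 0.53) were looser, with permutation p from 0.0134 to 0.0183 and adjusted p from 0.0196 to 0.0206. Canx stood apart (r = 0.22, rho = 0.14, permutation p = 0.284 for r and 0.470 for rho).

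The relations with an adjusted p under 0.05 all kept a positive r without the most distant mice. No p was computed without them. Without ADV 33 and ADV 22, the 2 mice farthest from the median of Hspa5, r was 0.76 for Hsp90b1, between 0.50 and 0.58 for Pdia3, Pdia6, Calr and Xbp1, between 0.34 and 0.43 for Pdia4, Creld2 and Sdf2l1, and -0.08 for Canx. Within the groups, with 9 relations each, an adjusted p under 0.05 was reached by 4 genes in LD mice (Hsp90b1, Pdia3, Pdia6 and Xbp1, r from 0.64 to 0.87) and by 5 in ADV mice (these and Calr, r from 0.59 to 0.84). The r of Hspa5 with Pdia4 was 0.29 within LD and 0.53 within ADV, and with Canx it was -0.05 and 0.31. No sequencing batch is named in the labels, so that no relation could be computed within batches.

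**Figure D5:**
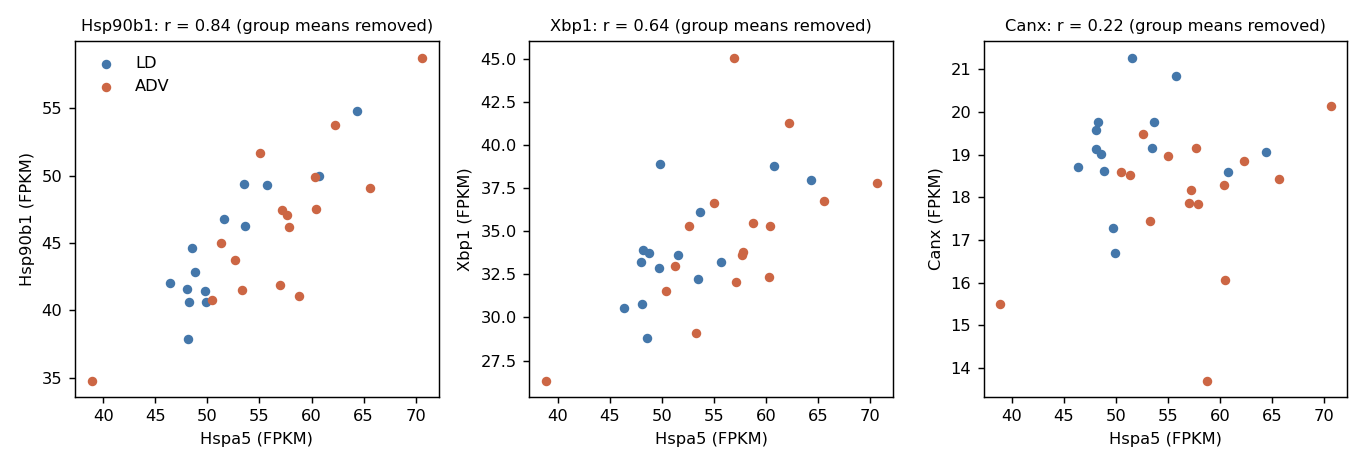
Relation of Hsp90b1, Xbp1 and Canx to Hspa5 across mice. Both axes are in FPKM, each point is 1 mouse (blue LD, n = 14, and orange ADV, n = 16), and the r above each panel is that of log2 CPM with the group means removed. Hsp90b1 follows Hspa5 most closely (r = 0.84) and Canx least (r = 0.22).

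Over all 45 pairs of the 10 genes, r was positive for 43, with a median of 0.55 and a range from -0.24 to 0.84, while the median r of Hspa5 with all 12029 other genes tested was -0.0032. Both negative pairs involved Canx, with Sdf2l1 (r = -0.24) and Calr (r = -0.17). The points share libraries and scaling, and these r are given as a description. The median over all other genes was computed for Hspa5 alone, and no r was recomputed with the GC trend removed. Among the closest pairs were Pdia3 with Pdia6 (0.77), Hsp90b1 with Pdia3 (0.76), Pdia3 with Pdia4 (0.74) and Pdia6 with Sdf2l1 (0.73). Xbp1 was closest to Calr (0.66) and Hspa5 (0.64) and little related to Creld2 (0.12), so that the cofactors and the transcription factor did not move as 1 block.

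Ranked by r with Hspa5 among all genes tested, Hsp90b1 was first and 5 of the 9 other ER chaperone genes were in the top 100. The 5 genes from outside the 10 that ranked highest were Manf, an ER stress-inducible secreted factor (r = 0.79), the lncRNA Gm15344 (0.76), which shares same-strand exon bases with Hsp90b1 and whose reads may be those of that gene, the small heat shock protein gene Hspb1 (0.74), Srxn1, which repairs oxidised peroxiredoxins (0.71), and Tnfrsf12a, the receptor Fn14 (0.70). Of these, Hspb1, Srxn1 and Tnfrsf12a were called higher in ADV mice, with log2 fold changes of 0.76 (FDR = 0.00158), 1.02 (FDR = 0.000470) and 1.24 (FDR = 0.00158). Manf, with 0.19 (FDR = 0.118), and Gm15344, with 0.14 (FDR = 0.224), were not called. Ranked from the side of the other chaperone genes, Hspa5 was at 1 for Hsp90b1, 14 for Pdia3, 16 for Xbp1 and 21 for Pdia6. It was at 207 for Calr, 581 for Creld2, 603 for Sdf2l1, 940 for Pdia4 and 3481 for Canx.

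Relations of Hspa5 to 8 genes of the ATF4 and cytosolic heat shock lists, chosen after the values were seen, were computed in the same way. Adjusted over these 8, p was under 0.05 for Hspa8 (r = 0.57, rho = 0.56, permutation p = 0.00235, adjusted p = 0.00940), Atf3 (r = 0.56, rho = 0.48, p = 0.00199, adjusted p = 0.00940), Hspa1a (r = 0.54, rho = 0.50, p = 0.00577, adjusted p = 0.0154), Hspa1b (r = 0.50, rho = 0.45, p = 0.0108, adjusted p = 0.0173) and Atf4 (r = 0.49, rho = 0.61, p = 0.00927, adjusted p = 0.0173). It was 0.0773 for Ddit3 (r = 0.36, rho = 0.37), 0.183 for Hsp90ab1 (r = 0.28, rho = 0.31) and 0.228 for Slc7a5 (r = 0.22, rho = 0.26). For Atf3 and Hspa1a the relation lay mainly in the ADV mice, with r of 0.70 and 0.63 there against 0.23 and 0.25 in LD mice, a difference that was not tested. Without ADV 33 and ADV 22 the r of Hspa8, Atf3, Hspa1a, Hspa1b and Atf4 were 0.46, 0.39, 0.36, 0.32 and 0.55.

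Single mice at the ends of these levels are given as a description. ADV 25 had the highest Atf3 (123.6 FPKM) and Hspa1a (45.5 FPKM) levels of its group. Its Hspa5 level of 60.4 FPKM lay above the ADV median of 57.4 FPKM, and its median rank over the 10 chaperone genes was 6.5 of 16. ADV 33 was high in both sets, with the highest Hspa5 level at 70.6 FPKM and the second highest Atf3 and Hspa1a levels of its group at 69.6 and 23.1 FPKM. ADV 22 was low in both, with the lowest Hspa5 level at 38.9 FPKM and the lowest Atf3 and Hspa1a levels of its group at 2.77 and 1.39 FPKM.

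Markers of other cells moved with the groups in part. Plasma cells are rich in ER chaperones, and of their 7 markers 3 were tested, whose summed level ranged from 85.2 to 330.1 FPKM in LD mice (median 150.4) and from 67.8 to 161.3 in ADV mice (median 112.0). That sum was mostly Ighm, which averaged 146.6 FPKM in LD mice against 11.4 for Igkc and 1.11 for Sdc1. Of those 3, 2 were called lower in ADV mice, Ighm at a log2 fold change of -0.47 (FDR = 0.0368) and Igkc at -2.07 (FDR = 0.0299), and by limma 0 were. Sdc1 was not called (-0.04, FDR = 0.841). The defining plasma cell markers Jchain, Mzb1 and Tnfrsf17 did not pass the filter, with medians of 0.381, 0.705 and 0.055 FPKM in LD mice and 0.206, 0.622 and 0.133 in ADV mice, and Tnfrsf17 was at 0 in 6 mice. Summed levels of 10 fibroblast markers, cells that secrete collagen, were 328.2 to 457.6 FPKM in LD mice and 287.6 to 479.7 in ADV mice, with 1 called lower, Pdgfra (-0.24, FDR = 0.0198). Igkc, Sdc1 and Pdgfra were named after their values were seen.

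In the other marker lists edgeR called 0 of 10 macrophage genes (4 lower at an unadjusted p under 0.05, and 1 called lower by DESeq2) and 0 of 7 Schwann cell genes (5 higher at an unadjusted p under 0.05, and 3 called higher by DESeq2). It called higher 2 of 10 endothelial genes, Pecam1 and, named after its value was seen, Emcn (0.27, FDR = 0.00924), 1 of 9 adipocyte genes and 1 of 4 satellite cell genes. The summed levels ranged from 94.2 to 242.9 FPKM in LD and 83.0 to 171.3 in ADV mice for macrophages, from 80.9 to 112.7 and 92.4 to 126.3 for endothelium, from 27.9 to 51.1 and 29.7 to 87.1 for Schwann cells, from 185.7 to 385.9 and 196.9 to 719.6 for adipocytes, and from 15.4 to 24.5 and 17.8 to 32.8 for satellite cells. The most abundant marker of each list had log2 fold changes of -0.11 for Dcn (fibroblast, FDR = 0.133), -0.29 for Lyz2 (macrophage, FDR = 0.133), 0.16 for Pecam1 (endothelium, FDR = 0.0331), 0.22 for Pmp22 (Schwann cell, FDR = 0.0938), 0.37 for Fabp4 (adipocyte, FDR = 0.0228) and 0.41 for Sdc4 (satellite cell, FDR = 0.0455). In the satellite cell list, Vcam1, Cdh15 and Chodl were not called, with log2 fold changes of 0.10, 0.0053 and -0.09 (FDR = 0.648, 0.968 and 0.610). Its markers Pax7, Myf5 and Calcr did not pass the filter, with medians of 0.302, 0.4135 and 0.0705 FPKM in LD mice. In ADV mice their medians were 0.3205, 0.415 and 0.0755 FPKM. These satellite cell genes were named after their values were seen. The part of the marked cell types in the levels of the 10 chaperone genes was not tested.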

How the data were processed

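Libraries were prepared with a stranded poly(A) kit from 1 mouse each. After trimming (Trimmomatic) and mapping to GRCm39 (STAR 2.7.10a), the authors dropped alignments of a mapping quality under 10 and obtained exon reads with HOMER 4.11, in which each mate adds 0.5 read. The deposited raw values are therefore estimated count values that need not be whole, and the deposited FPKM values are scaled by exon length and library size; both cover 57186 rows (UCSC known canonical transcripts). The strand option of the counting is not given in the sources used here.

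Counts were rounded and tested by the quasi-likelihood method of edgeR 4.0.16, with TMM scaling, in R 4.3.3 on the 12030 genes that averaged more than 20 reads and 0.5 FPKM, with 1 row per symbol and Benjamini-Hochberg adjustment (FDR). DESeq2 1.42.0, the authors' tool, and limma 3.58.1 on log2(FPKM + 0.1) or log2(FPKM + 1) were alternatives, as were other size factors and filters, counts summed over rows of a symbol, a replicate block, a covariate for the state of the clock genes, an offset for GC content (GENCODE vM39 transcripts) and the removal of each of the 30 libraries. SE is that of the log2 fold change. The clock gene score used log2 CPM centred on the mean of each gene. It was the average of 5 genes high with Bmal1 minus that of 8 genes high when Bmal1 is low. Relations between genes used 100000 permutations within groups (scipy 1.17.1). The scripts were tested on simulated data.

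At 18875468.5 to 28512674 exon reads per library, Sdf2l1, the scarcest of the 10 genes, had a mean of 79.1 reads. Named genes were the 10 genes, the most abundant and the 3 with the smallest p of each other list, the most abundant of each marker list, the 5 closest to Hspa5 and 2 clock genes. The 10 genes were given by name, and they, the lists and the tests were chosen with earlier results of these data known. Grip strength and histology were not analysed here.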

Additional observations from a re-analysis of the deposited data

How the results depend on the processing

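The 10 genes were called in 0 of 42 alternative settings, and the lowest FDR of any of them was 0.0603 without 1 library (Hspa5 without ADV 22) and 0.0660 otherwise (Canx, DESeq2). In the setting with the clock gene score 0 of all 12030 genes were called, so that the count of the 10 carries no information there. Of 419 values of single chaperone genes under the alternatives, 363 kept their direction and 56 reversed, 41 of these on leaving out 1 library, and none of the reversed estimates passed the threshold. With a clock gene score in the model, log2 fold changes were -0.017 for Hsp90b1, -0.19 for Sdf2l1 and -0.10 for Creld2, and moved without a change of sign from -0.0027 to -0.13 for Pdia4 and from 0.02 to 0.12 for Xbp1, and with the GC trend removed 0.038 for Pdia3, 0.033 for Pdia4 and -0.046 for Xbp1. By limma, with a pseudocount of 0.1 and of 1 FPKM, they were 0.0070 and 0.0067 for Pdia4, 0.0142 and 0.0136 for Pdia6, and 0.0026 and 0.0027 for Calr, with library size alone 0.0089 for Pdia4 and 0.0099 for Pdia6, and without the filter 1.0e-04 for Pdia6. Without 1 library they ranged from -0.026 to 0.0061 for Calr, from -0.036 to 0.0049 for Pdia3, from -0.050 to 0.029 for Pdia4, from -0.026 to 0.028 for Pdia6 and from -0.010 to 0.040 for Xbp1. The causes were not tested. A mean over 100 reads left Sdf2l1 without a value.

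Of the ATF4 arm, 6 genes were called higher, 0 with the clock gene score, 4 with the GC trend removed, and 2 with the replicate block against 4 on the same 28 libraries without it. Of the other lists, 6 were called higher and 8 lower, 0 and 0 with the clock gene score, 3 and 1 with the replicate block, 4 and 2 on the same 28 libraries without the block, 4 and 1 without the filter and 4 and 3 with the GC trend removed. Without 1 library the counts ranged from 5 to 7 (ATF4 arm, higher), from 0 to 1 (lower, 1 without ADV 30), and from 4 to 7 and 5 to 10 (other lists, higher and lower, 5 without LD 28). Over all genes the 690 higher and 616 lower calls became 353 and 274 without the filter, 290 and 307 with the GC trend removed, 447 and 391 without LD 28, and 0 and 0 with the clock gene score, where 1395 genes had an unadjusted p under 0.05. The number of genes related to Hspa5 was 8, and 4 within LD and 5 within ADV, where fewer mice entered.

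The label numbers occur in both groups, but the 14 same-numbered pairs had correlations from -0.338 to 0.573, with 7 over 0.1, and 3 of the LD mice correlated best with their own number, so the numbers were not taken as pairs. A replicate block gave 289 higher and 202 lower calls over all genes, against 333 and 280 without it on the same libraries.

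Sdf2l1 and Creld2 had the fewest reads of the 10 genes, 79.1 and 146.6 on average, and the largest SE, 0.11 and 0.10 on the log2 scale, and the part of depth in these errors was not tested. The groups are of more than 10 mice, so that single outlying values were not tested.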

Other observations

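The genes that varied most like the other chaperone genes from mouse to mouse differed from gene to gene. They were chosen after their values were seen, and r is that of log2 CPM over 30 mice with group means removed, given as a description. Pdia4 was closest to Ret, a receptor tyrosine kinase gene (r = 0.87), and to Serpinh1, the collagen chaperone HSP47 (0.86), and Cd248, a gene of fibroblasts and pericytes, was among its 10 closest genes (0.79). Sdf2l1 also had Cd248 among its 10 closest (0.69), beside Manf (0.69) and Atf6b (0.68). Creld2 and Pdia6 had P4ha1, a subunit of collagen prolyl hydroxylase, among theirs (0.75 and 0.71). Serpinh1 itself had a log2 fold change of 0.32 (FDR = 0.241) and a wide spread, with 20.5 ± 8.38 FPKM in LD and 25.9 ± 9.01 in ADV mice (SD).

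Canx was closest to Akap6, an anchoring protein of the muscle nuclear envelope (0.84), and Cltc, the clathrin heavy chain (0.83), and none of the 10 genes closest to it was an ER chaperone. Calr was closest to Dlgap4 (0.83) and had Sqstm1, the autophagy receptor p62, among its 10 closest (0.73). Xbp1 was closest to Creb3, an ER-anchored factor related to ATF6 (0.73), and to Cnpy3, a cochaperone of GRP94 (0.70). Creld2 had Hsp90aa1 among its 10 closest (0.73).

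Outside the 10 genes, full ERSE letters were found in the windows of Dnajc3 and Ero1b among the folding enzymes and of Derl3 and Syvn1 among the degradation genes. Dnajc3, a cochaperone of BiP, had a log2 fold change of -0.06 (FDR = 0.336), and Ero1b one of -0.28 (FDR = 0.0467). The Herpud1 window held both the element without its last base and the second ERSE, and its transcript, of an ER stress-inducible degradation factor, had a log2 fold change of 0.06 (FDR = 0.449).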
